A study of Homo sapiens with 6 samples.

Results

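Polyamine synthesis and breakdown was examined through 10 genes chosen by name, out of 17013 genes with values in the count table. They fall into 4 synthesis genes (ODC1, AMD1, SRM and SMS), 3 genes of antizyme control (AZIN1, OAZ1 and OAZ2) and 3 catabolic genes (SAT1, SMOX and PAOX), and all 10 passed the filter on low counts. The cells were Y79, an established human retinoblastoma line that carries many copies of MYCN, a transcription factor gene of the MYC family. One group received an shRNA against MYCN (genotype label MYCN knockdown) and the other a control shRNA (genotype label MYCN wild-type). Each group has 3 libraries of poly(A)-selected RNA, called biological replicates by the series text and all placed in batch 1. The number and sequence of the shRNAs and the time after transduction were not stated in the labels, so spread between shRNAs was not measured.

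Polyamines (putrescine, spermidine and spermine) are small positively charged molecules that bind RNA and DNA and are needed for growth. Ornithine decarboxylase, encoded by ODC1, makes putrescine from ornithine in the step that limits the pathway, and ODC1 is a textbook target gene of MYC proteins. The decarboxylase of AMD1 supplies the aminopropyl groups, which SRM and SMS add in turn to form spermidine and spermine. Antizymes (OAZ1, OAZ2) bind ornithine decarboxylase and send it to the proteasome, and the inhibitor encoded by AZIN1, a catalytically inactive relative of ODC1, binds the antizymes instead. SAT1 acetylates spermidine and spermine, PAOX oxidises the acetylated forms, and SMOX oxidises spermine directly. Much of this control acts on translation and protein stability, which counts of poly(A) RNA do not measure.

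MYC proteins with their partner MAX bind the E-box CACGTG, so stretches that hold it are shown for the synthesis genes with a match. RefSeq start-site windows (GRCh38.p14, from 250 bases before to 50 after a start) were found for 7 of the 10 genes, in 10 windows. CACGTG, which reads the same on both strands, occurred in 1 of the 2 ODC1 windows and in the SRM window, and in none of those of AMD1, SMS, OAZ1, OAZ2 or SAT1. Of all 35116 windows 7.26% held it, and 0.664% held it at least 2 times, as the second ODC1 window did. Both ODC1 matches (chr2:10448036-10448041 and chr2:10448002-10448007) lie in intron 1 of transcript ODC1-201. The SRM match (chr1:11060212-11060217) lies 188 bases upstream of the start of SRM-201. The stretches are on the minus strand, chr2:10447993-10448120 (ODC1, from the first base of intron 1) and chr1:11060149-11060268 (SRM), with the E-box in capitals:
ODC1: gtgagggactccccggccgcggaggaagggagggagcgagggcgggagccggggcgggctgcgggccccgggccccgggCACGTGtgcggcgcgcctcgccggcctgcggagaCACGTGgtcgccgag
SRM: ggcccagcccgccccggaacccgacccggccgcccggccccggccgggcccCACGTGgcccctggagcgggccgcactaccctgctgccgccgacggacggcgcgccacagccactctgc
A match describes the letters of a window, and binding was not measured.

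Libraries held 15490263 to 15762707 estimated counts with MYCN shRNA and 15515994 to 16078416 with control shRNA. Levels below are CPM scaled by TMM factors (counts relative to library depth), and differences are log2 fold changes of MYCN shRNA over control shRNA from edgeR's quasi-likelihood test, adjusted over all 12819 genes tested by the Benjamini-Hochberg method. MYCN itself measured 2413, 2284 and 2195 CPM with MYCN shRNA, against 3046, 3128 and 2876 CPM with control shRNA. It fell by 0.39 ± 0.043 log2 units (SE; edgeR adjusted p = 8.03e-11), so the target stayed abundant. All 8 photoreceptor and retinoblastoma markers checked were at 1 CPM or more, with a summed level of 1495 to 1550 CPM with MYCN shRNA against 1781 to 1885 CPM with control shRNA. These markers moved apart: PDE6H (log2 fold change 1.89), ARR3, RCVRN, GNGT2, GNAT2 and CRX (0.36) rose, whereas the abundant OTX2 (-0.67) and NEUROD1 (-0.74) fell. Fibroblast markers summed to 5.06 to 6.43 CPM with MYCN shRNA against 2.22 to 2.67 CPM with control shRNA. COL1A1 and COL1A2 were called higher, whereas PDGFRB was called in neither direction (log2 fold change 0.0095). DCN stayed at 0.061 CPM or less, and COL3A1 was absent from the count table. Leukocyte markers summed to 5.53 to 6.47 CPM with MYCN shRNA against 4.14 to 4.73 CPM with control shRNA. Endothelial markers summed to 31.3 to 34.98 CPM with MYCN shRNA against 3.93 to 4.66 CPM with control shRNA, nearly all of it VWF, while PECAM1 stayed at or below 0.362 CPM. Pigment epithelium markers summed to 10.2 to 11.4 CPM with MYCN shRNA against 2.70 to 2.82 CPM with control shRNA, and Müller glia markers to 648 to 669.8 CPM against 829 to 849 CPM, nearly all of it GLUL, with RLBP1 and AQP4 at 0.131 CPM or less. Their part in the results was not tested, and in bulk RNA fewer cells of a type and less RNA per cell cannot be told apart.

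All 4 synthesis genes fell with MYCN shRNA, 1 of the 3 antizyme control genes fell, and 2 of the 3 catabolic genes rose. Of the 10 genes, 5 were called lower, 2 higher and 3 in neither direction. Among all tested genes 37.9% were called lower, 38.0% higher and 75.8% in either direction, so a called gene was common and the share called among the 10 is near that background. Groups did not overlap in CPM for 8 of the 10 genes, against 76.8% of all tested genes. The median log2 fold change was -0.51 for synthesis, 0.04 for antizyme control and 0.35 for catabolism, and 0.0046 over all tested genes. A change of at least 2-fold past the test was less common, at 5.25% of tested genes lower and 9.24% higher, and ODC1 and SAT1 were among these.

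**Figure D1:**
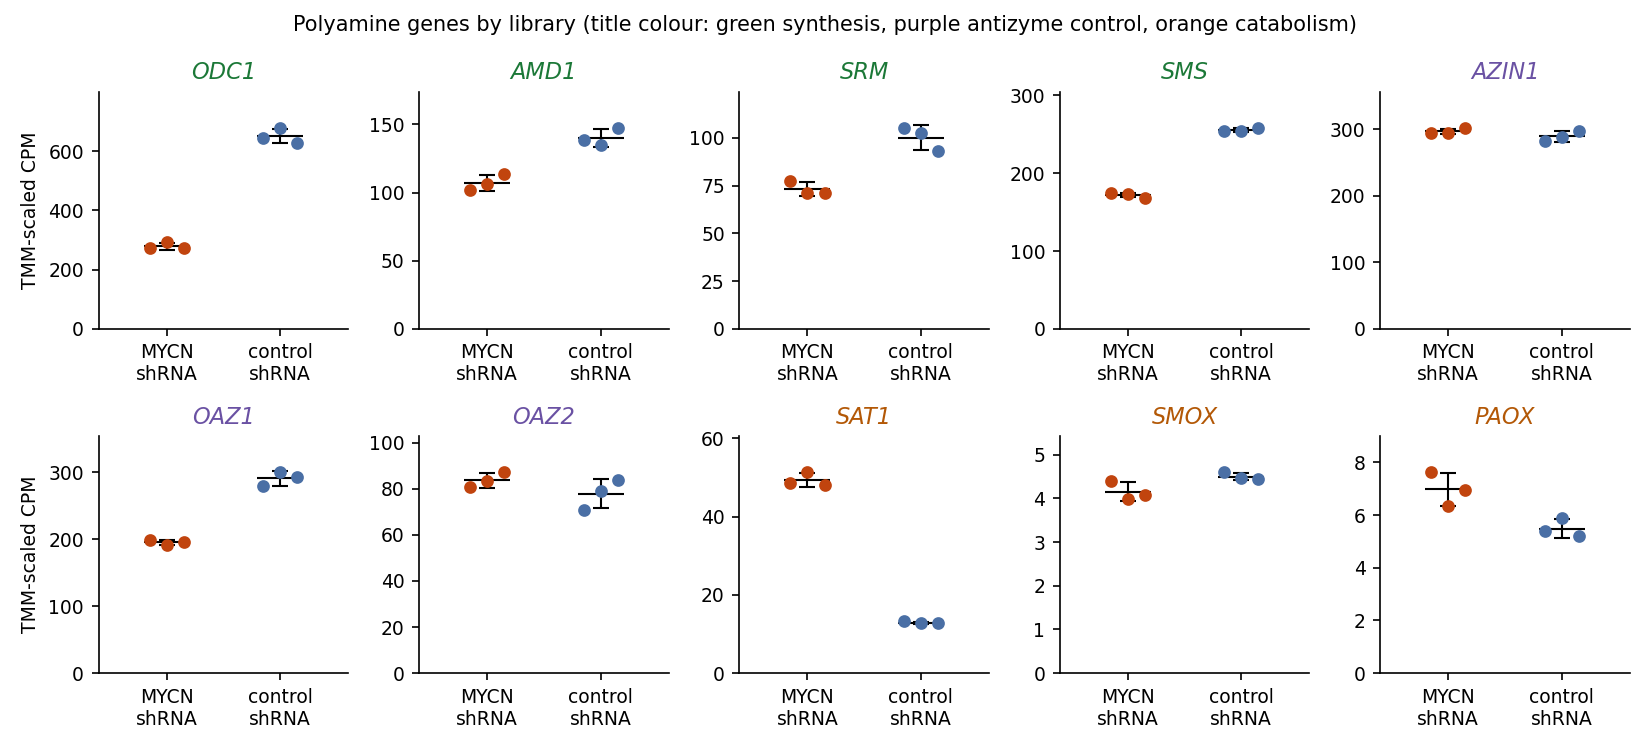
TMM-scaled CPM (vertical axes, each from 0) of the 10 polyamine genes in 3 MYCN shRNA libraries (left, red) and 3 control shRNA libraries (right, blue), with mean and SD bars. ODC1 lay between 271 and 293 CPM with MYCN shRNA and between 629 and 678 CPM with control shRNA, SAT1 stood higher with MYCN shRNA, and AZIN1 and OAZ2 overlapped between groups.

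ODC1 (ENSG00000115758.12, chromosome 2, 10439968 to 10448504, minus strand, GRCh38) was the member with the largest decrease. It measured 274, 293 and 271 CPM with MYCN shRNA, against 646, 678 and 629 CPM with control shRNA. Every MYCN shRNA library lay below the lowest control library, and the means were 279.6 ± 11.8 and 651 ± 24.7 CPM (SD, n = 3 each). ODC1 fell by 1.22 ± 0.041 log2 units (SE; edgeR adjusted p = 1.5e-27), which left 0.43-fold of the control level. Only 3.18% of tested genes had a lower log2 fold change. A SNORA80B snoRNA gene lies within ODC1 on the same strand and was not tested, and no other transcript in GENCODE 29 matched ODC1 at 90% identity over 300 bases.

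SMS (chromosome X, 21940573 to 21994835), which makes spermine, had the second largest decrease among the synthesis genes. Its levels were 174, 173 and 169 CPM with MYCN shRNA, against 255, 254 and 258 CPM with control shRNA. The groups were far apart relative to their spread, and the log2 fold change was -0.57 ± 0.038 (SE; edgeR adjusted p = 2.48e-17). SRM (chromosome 1, 11054584 to 11060024), which makes spermidine, measured 77.3, 71.4 and 70.96 CPM with MYCN shRNA, against 105, 102 and 92.8 CPM with control shRNA. SRM fell by 0.45 ± 0.0497 log2 units (SE; edgeR adjusted p = 8.14e-11), and control replicate 3 was the lowest of its group.

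AMD1 (chromosome 6, 110874770 to 110895713), whose enzyme decarboxylates S-adenosylmethionine, had the smallest decrease of the synthesis genes. It measured 102, 106 and 113 CPM with MYCN shRNA, against 139, 135 and 147 CPM with control shRNA, with no overlap. The log2 fold change was -0.39 ± 0.045 (SE; edgeR adjusted p = 3.42e-10), close to that of MYCN itself. Processed pseudogenes resemble 2 of these transcripts: 2 match SMS with up to 98.4% identity, and 2 match AMD1 with at least 90%. The closest match to AMD1, at 94.1%, was AC010435.1, which is not annotated as a pseudogene. None of them was among the tested genes, and the counts of SMS and AMD1 depend to that extent on how shared reads were assigned.

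The antizyme genes did not move together. OAZ1 (chromosome 19, 2269509 to 2273490), the main antizyme gene, measured 199, 192 and 195 CPM with MYCN shRNA, against 279, 299 and 293 CPM with control shRNA. It fell by 0.57 ± 0.039 log2 units (SE; edgeR adjusted p = 5.8e-17), a decrease of the size seen for SMS. OAZ2 (chromosome 15, 64687573 to 64703281) measured 80.7, 83.1 and 87.1 CPM with MYCN shRNA, against 70.9, 79.1 and 83.7 CPM with control shRNA. These ranges overlapped, and OAZ2 missed the threshold (log2 fold change 0.10 ± 0.052, SE; edgeR adjusted p = 0.0664). OAZ2 was called higher when replicate number was a block (edgeR adjusted p = 0.0324), with library sizes only (log2 fold change 0.29), with upper quartile factors (0.14), without MYCN shRNA replicate 1 (0.13) and without control shRNA replicate 3 (0.15).

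AZIN1 (chromosome 8, 102826357 to 102893864), the antizyme inhibitor gene, had overlapping groups. It measured 295, 294 and 302 CPM with MYCN shRNA, against 282, 288 and 298 CPM with control shRNA. The log2 fold change was 0.04 ± 0.038 (SE; edgeR adjusted p = 0.371), with a 95% interval of -0.04 to 0.11. With library sizes only it was 0.22 and called higher, a scaling that moved the median of all genes to 0.19. OAZ1, OAZ2 and AZIN1 each overlap other annotated genes, none of which was tested, and no source used here states the strand setting of the counting.

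SAT1 (chromosome X, 23783173 to 23786226), the acetyltransferase gene that starts polyamine breakdown and export, rose most of the 10. It measured 48.4, 51.3 and 48.02 CPM with MYCN shRNA, against 13.2, 12.7 and 12.8 CPM with control shRNA. The means were 49.2 ± 1.8 and 12.9 ± 0.26 CPM (SD, n = 3 each), 3.82-fold higher with MYCN shRNA. The log2 fold change was 1.93 ± 0.069 (SE; edgeR adjusted p = 1.29e-26), and 97.2% of tested genes had a lower one. SAT1 transcripts include a form with an extra exon that is known to be degraded, and counts per gene do not separate it from the coding form.

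The oxidase genes were far less abundant, and their values are less certain. PAOX (chromosome 10, 133379234 to 133391694) measured 7.62, 6.33 and 6.96 CPM with MYCN shRNA, against 5.38, 5.87 and 5.20 CPM with control shRNA, from 75 to 128 counts per library. PAOX rose by 0.35 ± 0.13 log2 units (SE; edgeR adjusted p = 0.015), with a 95% interval of 0.085 to 0.61. This call was lost with DESeq2 (adjusted p = 0.0706), without MYCN shRNA replicate 1 (edgeR adjusted p = 0.0863) and without control shRNA replicate 3 (edgeR adjusted p = 0.0505). PAOX also overlaps AL360181.3, an annotated protein-coding gene on the same strand that was not tested.

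SMOX (chromosome 20, 4120980 to 4187747), the spermine oxidase gene, measured 4.40, 3.98 and 4.09 CPM with MYCN shRNA, against 4.60, 4.47 and 4.44 CPM with control shRNA. The ranges were separated by a narrow gap, but the difference missed the threshold (log2 fold change -0.11 ± 0.15, SE; edgeR adjusted p = 0.487). Its 95% interval ran from -0.41 to 0.18, and with library sizes only the value turned to 0.07. At 64 to 74 counts per library, a change of any size within that interval remained possible.

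**Figure D2:**
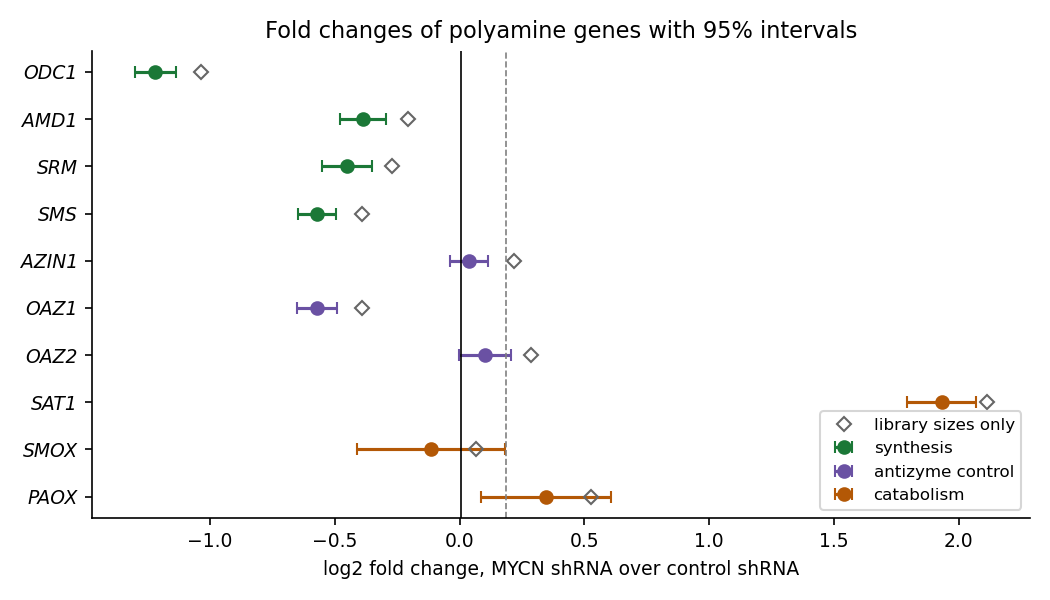
Log2 fold change of MYCN shRNA over control shRNA (horizontal axis) for the 10 genes, coloured by role, with 95% intervals. Open diamonds give the value with library sizes only, and the solid and dashed lines mark the median of all tested genes under TMM and under library sizes. The 4 synthesis genes and OAZ1 lie left of both lines and SAT1 lies far right at 1.93.

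Ratios of 2 genes within a library do not depend on scaling, and 8 were compared. With 3 libraries a group the exact two-sided permutation test, which ignores any pairing of libraries, cannot go below p = 0.1. ODC1 had 5.66, 5.71 and 5.65 counts per SAT1 count with MYCN shRNA, against 48.8, 53.1 and 49.2 with control shRNA. The mean log2 ratio of ODC1 over SAT1 was 2.50 ± 0.0087 with MYCN shRNA and 5.65 ± 0.067 with control shRNA (SD, n = 3 each), a difference of -3.15 (exact permutation p = 0.1, adjusted p = 0.114). The groups were thus separated by an 8.87-fold change in this ratio between the entry enzyme and the acetyltransferase. AMD1 had 2.07 to 2.36 counts per SAT1 count with MYCN shRNA, against 10.5 to 11.5 with control shRNA.

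ODC1 also fell relative to its antizyme and to the antizyme inhibitor in these libraries, without overlap between groups. Per OAZ1 count there were 1.38, 1.53 and 1.39 ODC1 counts with MYCN shRNA, against 2.32, 2.26 and 2.15 with control shRNA (log2 difference -0.65). Per AZIN1 count there were 0.929, 0.998 and 0.900 ODC1 counts with MYCN shRNA, against 2.29, 2.35 and 2.11 with control shRNA (log2 difference -1.26). So ODC1 gave fewer counts than AZIN1 in every MYCN shRNA library and more in every control library. These counts are not divided by transcript length. Per kilobase of transcript ODC1 stood above AZIN1 in both groups, at 105 against 62.9 CPM with MYCN shRNA and 245 against 61.2 CPM with control shRNA. The balance of the antizyme genes differed as well: there were 2.24 to 2.46 OAZ1 counts per OAZ2 count with MYCN shRNA, against 3.50 to 3.93 with control shRNA. These ratios had an exact permutation p of 0.1 (adjusted p = 0.114), the smallest that this unpaired test allows.

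The ratio of the 2 aminopropyl transferase genes overlapped between groups. SRM over SMS was 0.444, 0.412 and 0.421 with MYCN shRNA, against 0.413, 0.403 and 0.360 with control shRNA. The overlap was small (log2 difference 0.12, exact permutation p = 0.2, adjusted p = 0.2). Between libraries of the same replicate number the ratio was higher with MYCN shRNA in 3 of 3 pairs, which that unpaired test does not use. AMD1 over ODC1 was 0.363 to 0.417 with MYCN shRNA, against 0.199 to 0.234 with control shRNA, and SMOX over PAOX was 0.58 to 0.63, against 0.763 to 0.855 (exact permutation p = 0.1 and adjusted p = 0.114 for each).

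**Figure D3:**
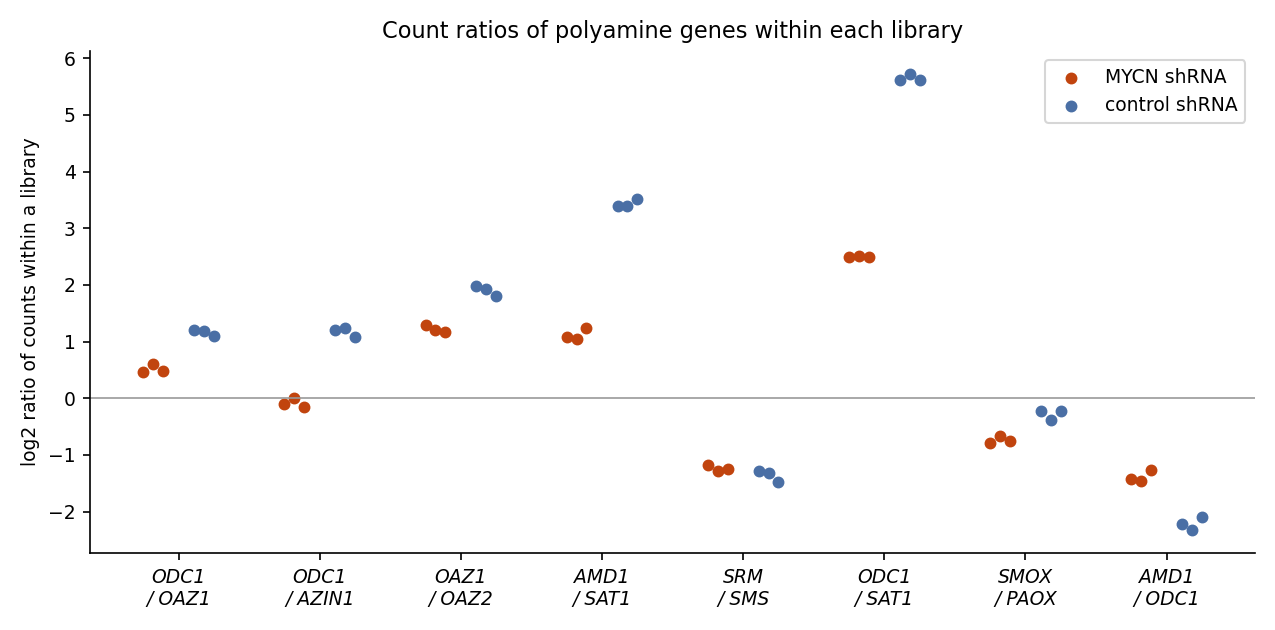
Log2 ratio of counts (vertical axis) for 8 gene pairs within each library, MYCN shRNA (red, left) and control shRNA (blue, right). Only SRM over SMS overlaps between the groups, and ODC1 over SAT1 is the most separated, at about 2.50 and 5.65.

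Averaged by role in each library, synthesis, antizyme control and catabolism differed in their change. The mean log2 CPM of the 4 synthesis genes was 7.12, 7.13 and 7.11 with MYCN shRNA, against 7.79, 7.79 and 7.76 with control shRNA, a difference of -0.66. For antizyme control the difference was -0.14, set by the decrease of OAZ1. For catabolism it was 0.72, carried mostly by SAT1. Synthesis exceeded catabolism by 3.63 ± 0.059 log2 units with MYCN shRNA and by 5.001 ± 0.018 with control shRNA (SD, n = 3 each). Synthesis minus antizyme control changed sign, at -0.28 ± 0.031 with MYCN shRNA and 0.23 ± 0.0796 with control shRNA. These role means describe genes of unlike length and carry no test.

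The order of the genes by level was compared per length, as CPM per kilobase of 1 GENCODE 29 transcript each. With MYCN shRNA OAZ1 led at 170.1 ± 3.1 CPM per kilobase, followed by ODC1 (105 ± 4.4), SMS (93.6 ± 1.5), AZIN1 (62.9 ± 0.90) and SRM (57.8 ± 2.8). With control shRNA OAZ1 (253 ± 9.2) and ODC1 (245 ± 9.3) overlapped at the top, and SMS (139 ± 1.1), SRM (79.1 ± 5.1) and AZIN1 (61.2 ± 1.7) followed (SD, n = 3 each). Per kilobase ODC1 thus stood level with its antizyme gene OAZ1 in control libraries and below it in MYCN shRNA libraries. By counts not divided by length ODC1 exceeded OAZ1 in every library, so this order depends on the transcript chosen for each gene. SAT1 was sixth with MYCN shRNA at 46.2 ± 1.7 CPM per kilobase, above OAZ2 (43.2 ± 1.6) and AMD1 (31.2 ± 1.7). With control shRNA it was eighth at 12.1 ± 0.24, below AMD1 (40.8 ± 1.9) and OAZ2 (40.3 ± 3.3), which overlapped. PAOX and SMOX were last in both groups, at 3.75 ± 0.35 and 1.86 ± 0.098 with MYCN shRNA and at 2.95 ± 0.19 and 2.02 ± 0.038 with control shRNA.

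Fold changes followed abundance over the whole table, so members were set beside genes of like level. The 3263 tested genes between 6 and 8 on the log2 CPM scale, where SRM, AMD1, SMS, OAZ1 and OAZ2 lie, had a median log2 fold change of -0.07, and 46.5% of them were called lower. The 556 genes between 8 and 10, where ODC1 and AZIN1 lie, had a median of -0.21, with 61.5% called lower. ODC1 stood well below that median and AZIN1 above it. The 4825 genes between 4 and 6, the range of SAT1, had a median of -0.0015, and the 2358 genes between 2 and 4, the range of PAOX and SMOX, had 0.13.

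**Figure D4:**
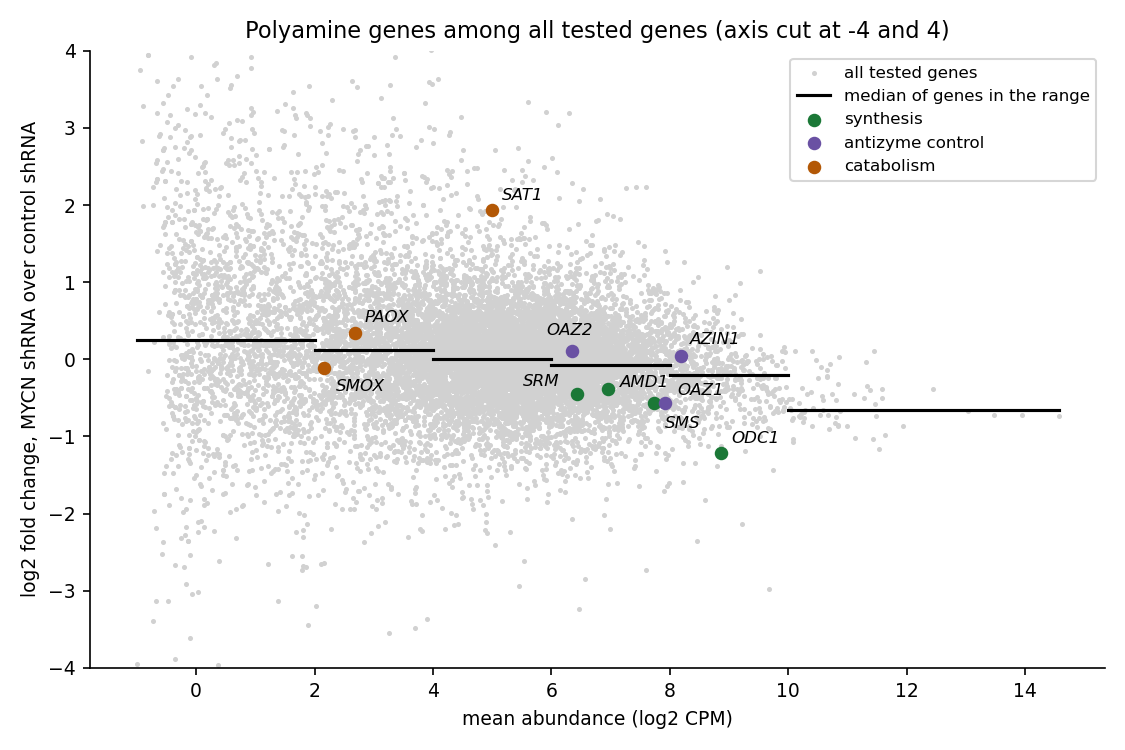
Log2 fold change of MYCN shRNA over control shRNA (vertical axis, cut at -4 and 4) against mean abundance in log2 CPM for all tested genes (grey), with the 10 polyamine genes coloured by role and black lines for the median in each abundance range. ODC1 lies below the line of its range and SAT1 above.

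The 7-base sequences AGCACAA and GTGGATC, which an earlier search of these fold changes picked from lowered transcripts, occur in MYCN. Of its 2 protein-coding transcripts, 2 hold AGCACAA and 1 holds GTGGATC. Neither occurs in any of the protein-coding GENCODE 29 transcripts of the 10 genes, which number 3 to 7 a gene. The share of all transcripts that hold these sequences was not counted, and their part in the changes of the 10 genes was not tested. MYCN was itself called lower in these data, so its matches are no independent evidence.

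Genes with a pattern most like those of ODC1 and SAT1 were taken by the mean absolute difference of centred log2 CPM over the 6 libraries, among 9722 other genes with at least 10 CPM. For ODC1 these were NME4 (difference 0.016), a nucleoside diphosphate kinase gene of mitochondria, TMCC2 (0.023) and OGT (0.024), which encodes the O-GlcNAc transferase. NME4 averaged 36.04 ± 1.2 CPM with MYCN shRNA and 84.9 ± 3.7 CPM with control shRNA (SD, n = 3 each). For SAT1 they were EFR3B (0.032), the fibroblast growth factor gene FGF2 (0.033) and the myosin gene MYO5A (0.041). FGF2 averaged 37.9 ± 0.42 CPM with MYCN shRNA and 9.72 ± 0.34 CPM with control shRNA (SD, n = 3 each). As the libraries form 2 groups, likeness here means a similar difference between them.

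A wider list of 36 genes around the pathway had 34 members in the table, of which 23 were tested. Of these 13 fell, 7 rose and 3 did not pass the test, with a median log2 fold change of -0.21. These shares stand beside 37.9% lower and 38.0% higher among all tested genes. With library sizes only, 10 were lower and 8 higher.

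Genes that feed the pathway moved in both directions. Among ornithine and arginine supply genes 4 of 6 tested fell and 2 rose. Those that fell included OAT (log2 fold change -0.21; edgeR adjusted p = 8.55e-05) and SLC25A15 (-0.21; edgeR adjusted p = 0.000359). ALDH18A1, which makes the precursor of ornithine from glutamate, fell to 158 ± 6.02 CPM with MYCN shRNA, against 235 ± 9.6 CPM with control shRNA (log2 fold change -0.58), and the arginine transporter gene SLC7A2 to 27.9 ± 1.1 CPM, against 49.3 ± 1.5 CPM (-0.82). SLC7A1, the more abundant arginine transporter gene, rose to 202 ± 4.8 CPM with MYCN shRNA, against 173 ± 5.1 CPM with control shRNA (0.22; edgeR adjusted p = 2.95e-06), and the arginase gene ARG2 rose by 0.29 log2 units (edgeR adjusted p = 0.000463). Among genes of S-adenosylmethionine supply and of salvage of its spent product, 4 of 5 tested fell and 1 rose. MAT2A, the S-adenosylmethionine synthetase gene, was abundant and fell to 754 ± 11.6 CPM with MYCN shRNA, against 1108 ± 15.03 CPM with control shRNA (-0.56). Neighbouring steps of the salvage path moved apart: ENOPH1 fell by 0.59 on the log2 scale, and ADI1, which acts directly after it, rose by 0.51, to 107.96 ± 3.0 CPM with MYCN shRNA, against 75.95 ± 1.04 CPM with control shRNA. Means carry SD over n = 3 libraries, and ALDH18A1, SLC7A2, MAT2A, ENOPH1 and ADI1 had edgeR adjusted p-values of at most 2.24e-13.

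Hypusine is an amino acid that the cell builds from spermidine on the translation factor eIF5A, and 3 of its 4 tested genes fell. EIF5A fell to 293 ± 6.4 CPM with MYCN shRNA, against 414 ± 5.3 CPM with control shRNA (log2 fold change -0.50; edgeR adjusted p = 1.53e-15). DHPS, whose enzyme transfers the spermidine part, fell to 49.6 ± 1.8 CPM, against 90.1 ± 4.2 CPM (-0.86; edgeR adjusted p = 4.21e-19). EIF5A2 also fell, while DOHH, which completes the modification, did not pass the test. EIF5A has many processed copies in the genome, which were not sought here. Its count depends on how any shared reads were assigned.

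The paralogues and transporters were mixed. SAT2, a relative of SAT1, fell to 25.1 ± 0.77 CPM with MYCN shRNA, against 47.5 ± 1.2 CPM with control shRNA (log2 fold change -0.92; edgeR adjusted p = 1.15e-17), the opposite direction to SAT1. SATL1 was near the detection limit with 44 counts over the MYCN shRNA libraries and 18 over the control libraries. It was called higher (log2 fold change 1.12; edgeR adjusted p = 0.0172), but not with DESeq2 (adjusted p = 0.0805), without control shRNA replicate 1 (0.60; edgeR adjusted p = 0.187) or without MYCN shRNA replicate 3 (edgeR adjusted p = 0.053), and it was 1.89 without control shRNA replicate 3. AZIN2 did not pass the test, and OAZ3 was not tested.

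Among transport genes 3 of 5 tested rose and 1 fell. The gene that fell, SLC3A2, measured 87.4 ± 2.2 CPM with MYCN shRNA, against 120.5 ± 12.3 CPM with control shRNA (log2 fold change -0.46; edgeR adjusted p = 1.29e-08). GPC1, a heparan sulfate proteoglycan gene whose product takes part in polyamine uptake, rose to 38.4 ± 3.3 CPM with MYCN shRNA, against 18.7 ± 0.75 CPM with control shRNA (log2 fold change 1.04; edgeR adjusted p = 5.44e-17). ATP13A4, of the family of the lysosomal polyamine exporter ATP13A2, had 51, 51 and 54 counts with MYCN shRNA, against 0, 3 and 1 with control shRNA. Scaled for depth this is a ratio of 34.98, with an exact 95% interval of 13.4 to 130 that covers counting error only. The fitted log2 fold change of ATP13A4 was 5.01 (edgeR adjusted p = 9.91e-15), 6.24 without control shRNA replicate 2 and 4.45 without control shRNA replicate 1. ATP13A3, the abundant member of this family in these cells, rose by 0.13 on the log2 scale (edgeR adjusted p = 0.00463).

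**Figure D5:**
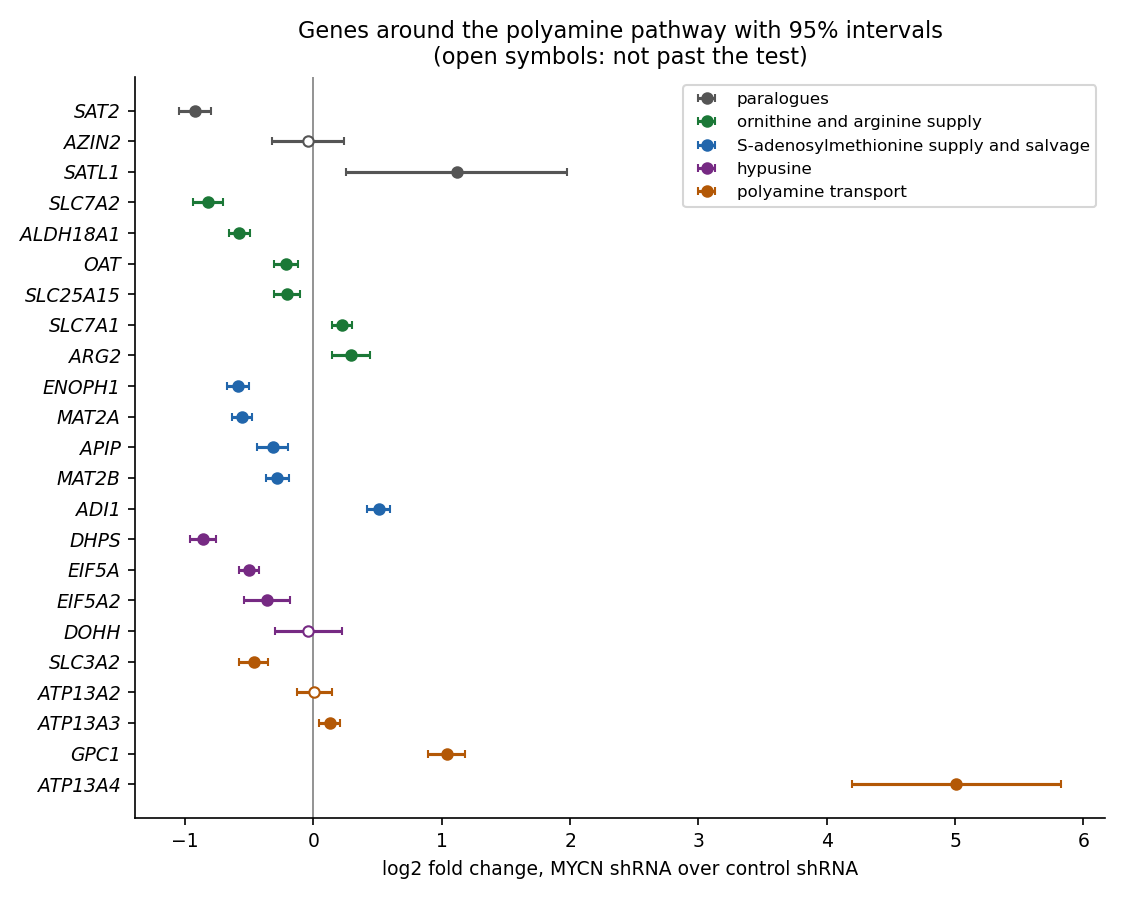
Log2 fold change of MYCN shRNA over control shRNA (horizontal axis) with 95% intervals for the 23 tested genes of the wider list, grouped and coloured by step, with open symbols for the 3 genes that did not pass the test. ATP13A4 lies far right at 5.01 and SAT2 lowest at -0.92.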

How the data were processed

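The authors deposited estimated counts for each gene symbol, 1 column per library, without scaling between libraries. Libraries came from TRIzol extraction and poly(A) selection per the labels' protocols, and the submitters' processing notes name GRCh38. None of the sources used here names the aligner, the counter or the annotation. Of 17035 rows 22 held text without values and were dropped, and estimated counts were rounded. Genes passing filterByExpr (minimum of 10 counts; 12819 genes) entered edgeR 4.0.16 (quasi-likelihood F-test, R 4.3.3, robust, TMM scaling) at an adjusted p of 0.05, fitted on the whole table. SEs come from the F statistic, and 95% intervals from the t distribution of the fit. Ratios added 0.5 counts to each gene. Intervals on counts cover counting error only.

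Same-numbered libraries deviated together from their group means (correlations of 0.56, 0.44 and 0.25 over 10138 genes). The numbers were therefore taken to pair the libraries, from the data and not from a label. The main fit and the permutation test did not use this pairing, and the replicate block did. Replicate pairs differed by more than sampling noise (chi-square per degree of freedom of 1.75 to 4.42). This spread was still small, with a biological coefficient of variation (relative spread beyond counting error) of 3.34%. The p-values of the fit rest on it. The labels do not say that replicates came from separate cultures, beyond the series text.

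Members and lists were chosen with earlier results of these data known. The named genes are the 10 members, MYCN, wider-list genes past the test with an absolute log2 fold change of at least 0.5, and the 3 most similar genes each for ODC1 and SAT1. The marker genes, SLC7A1, ARG2, SNORA80B, APIP, ATP13A2, MTAP, MRI1, ATP13A3, EIF5A2, DOHH, AZIN2 and OAZ3 were named after their values were seen. The same holds for SLC3A2, OAT and SLC25A15. Alternatives were DESeq2 1.42.0, limma-voom 3.58.1, other scalings and filters, a replicate block, pseudocounts of 0 and 5 counts for ratios, and each library left out. Near-identical transcripts were sought with blastn 2.17.0, and figures were drawn with matplotlib 3.10.9. The edgeR step was tested on simulated data.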

Additional observations from a re-analysis of the deposited data

How the results depend on the processing

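Over 39 results and 490 alternative values, 476 were scored as keeping direction and side of the threshold, or as moving little. That score was lenient. Counts of genes could shift within a set factor, as those under library sizes only did for all tested genes. Genes called in neither run could change sign, as SMOX did with library sizes only (-0.11 to 0.07). The 5 members called lower and SAT1 kept their calls in every alternative run. The count of members called higher was 2, with 1 under DESeq2, 3 under upper quartile factors and under the replicate block, and 4 under library sizes only. PAOX had a log2 fold change of 0.34 under DESeq2, where its call was lost. OAZ2 became called with upper quartile factors (0.14), library sizes only (0.29) and the replicate block (0.10, adjusted p = 0.0324 by edgeR), as did AZIN1 with library sizes only (0.22). The replicate block changed no other call among the members. With each library left out in turn, PAOX ranged from 0.28 to 0.41 and OAZ2 from 0.036 to 0.15. Members called higher stayed at 2 in number, although OAZ2 took the place of PAOX without MYCN shRNA replicate 1 and without control shRNA replicate 3. With library sizes only, 6597 of all tested genes were higher and 3348 lower, against 4865 and 4857 under TMM. Depth limits SMOX and PAOX most.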

Other observations

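MTAP, the phosphorylase gene that recycles the methylthioadenosine left over by SRM and SMS, had 1 count over the 3 MYCN shRNA libraries and 0 over the 3 control libraries. A count of 0 allows up to 3 counts, or 0.191 CPM, in a library of average size. MRI1, which acts next in that salvage path, had 11 counts over the MYCN shRNA libraries and 4 over the control libraries, while the later steps APIP, ENOPH1 and ADI1 were each tested and averaged 37.5, 109 and 108 CPM with MYCN shRNA and 46.8, 164 and 76.0 CPM with control shRNA.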
